A study of Homo sapiens with 8 samples.

Results

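The m6A peaks of U2OS and 143B cells were compared after knockdown of METTL14. U2OS and 143B are established human osteosarcoma cell lines. Both were infected with lentivirus carrying a short hairpin RNA, either against METTL14 (shMETTL14) or a control hairpin (NC), and RNA enriched with an antibody against m6A was sequenced beside input RNA. The 2 shMETTL14 peak lists held 65187 of the 130622 peaks in the 4 lists of the study. All rows of both lists were used, 29992 peaks on 6092 genes in U2OS and 35195 peaks on 6916 genes in 143B. A peak whose exonic blocks met those of a same-strand peak in the other line's shMETTL14 list, by 1 bp or more, was called shared, and all other peaks were called specific to their line. There was 1 list per group, so no difference below has a replicate check and none was tested between the lines.

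N6-methyladenosine is the most common internal modification of messenger RNA. METTL3 is the catalytic subunit of the nuclear complex that writes it, METTL14 binds the RNA substrate within that complex, and the mark gathers around stop codons, in 3' UTRs and in long internal exons. A peak can be called only where the transcript is present, so a transcript that a line lacks, a site that is not methylated and a site under the caller's threshold cannot be told apart in these lists. The lines also differ in their origin: 143B was derived from the HOS line by oncogenic transformation in culture, whereas U2OS was taken directly from a tumour.

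Because the lists hold peaks and not RNA levels, the knockdown itself could not be checked. METTL14 had 2 sites in each shMETTL14 list, 3 in U2OS NC and 1 in 143B NC, where a site is a set of overlapping peaks of 1 list joined on the same strand. Joining reduced the lists to 10822 sites in U2OS and 12886 in 143B, since the lists repeat a locus for every isoform that contains it. Among osteoblast markers, RUNX2, the master transcription factor of bone formation, and SPARC, a bone matrix glycoprotein, had a site in all 4 lists. COL1A1, the main collagen chain of bone, had 2 sites in U2OS shMETTL14 and 1 in 143B shMETTL14. No list held a site on SP7, ALPL, BGLAP, IBSP, SPP1 or COL1A2, which says nothing about their RNA level.

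Most peaks were common to both lines, and 143B had the larger line-specific part. In U2OS shMETTL14, 6605 of 29992 peaks had no partner in 143B shMETTL14 (22%, exact Clopper-Pearson 95% interval 21.6 to 22.5). In 143B shMETTL14, 12170 of 35195 peaks had no partner in U2OS shMETTL14 (34.6%, interval 34.1 to 35.1). The same count in sites gave 2706 of 10822 in U2OS (25%) and 5169 of 12886 in 143B (40.1%). These intervals hold counting error alone, and peaks on isoforms of 1 gene are not independent. With the control hairpin the lines were closer to each other in these shares: 30.2% of U2OS NC peaks had no partner in 143B NC, and 31.4% of 143B NC peaks had none in U2OS NC. The 143B shMETTL14 list covered 4.22 Mb with a median peak width of 236 nt, and the U2OS shMETTL14 list 3.16 Mb with a median of 210 nt. The 143B and U2OS NC lists covered 3.60 and 3.46 Mb with medians of 209 and 210 nt. The median width in U2OS was thus the same with both hairpins, whereas the 143B list was wider with shMETTL14 than with NC. The part of list length and peak width in the specific shares was not tested. When 143B was limited to its 29992 peaks of lowest p-value, the number in U2OS, 28.6% of them were specific and the share in U2OS was 26.0%. Read depth is unknown, and its part in the difference was not tested. Set against the NC list of the other line, 27.9% of U2OS shMETTL14 peaks had no partner in 143B NC, and 32.5% of 143B shMETTL14 peaks had none in U2OS NC. Within a line, 20.9% of U2OS shMETTL14 peaks and 27.3% of 143B shMETTL14 peaks had no partner in their own NC list.

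The control lists show which line-specific peaks belonged to the line with the control hairpin as well. Of the 6605 U2OS-specific peaks, 36.7% overlapped a peak of U2OS NC and none of 143B NC, the pattern of a peak restricted to U2OS under both hairpins. Another 15.2% lay in both NC lists, 9.02% in 143B NC alone, and 39.0% in neither. Of the 12170 peaks specific to 143B, 29.8% were in 143B NC alone, 18.0% in both NC lists, 11.5% in U2OS NC alone and 40.7% in neither. Shared peaks had another distribution, with 77.5% (U2OS) and 78.4% (143B) listed in both NC lists. Thus 24.3% of the U2OS-specific and 29.5% of the 143B-specific peaks were listed in the other line's NC list, against 85.6% and 87.6% of the shared peaks. The peaks in neither NC list were weak, with a median p-value of 0.000513 in U2OS and 0.000339 in 143B by the authors' peak values, against 6.03e-05 and 2.95e-05 for those in their own NC list alone.

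**Figure D1:**
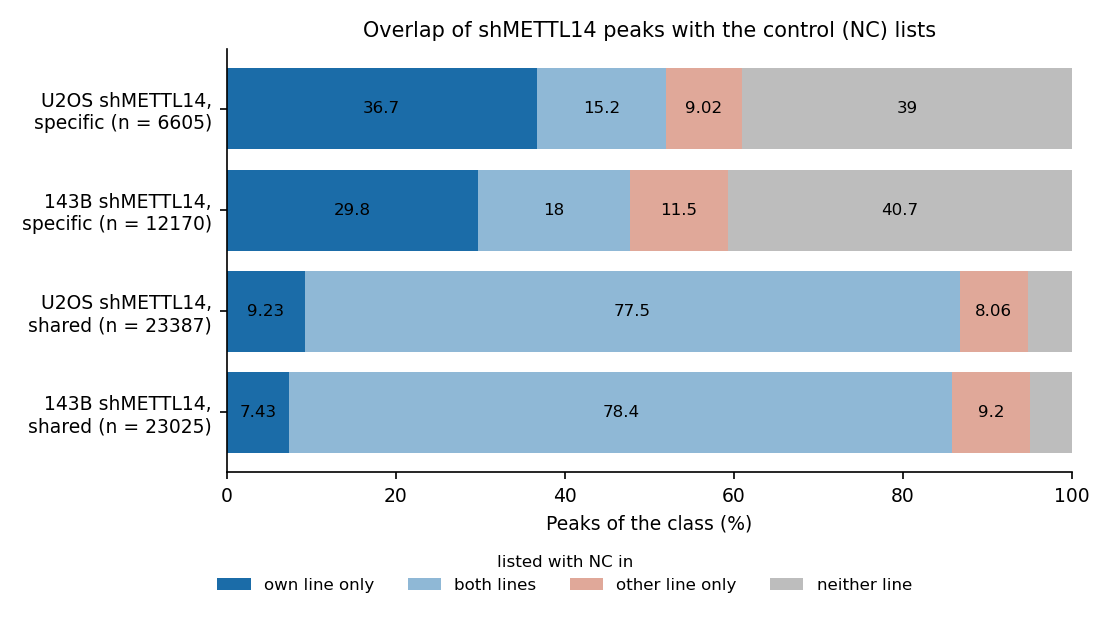
Share of shMETTL14 peaks (x axis, percent) that overlap a peak of the NC list of their own line only, both lines, the other line only or neither line, in stacked bars for the specific and shared peaks of U2OS and 143B. Between 29.8% and 36.7% of specific peaks lay in their own NC list alone, whereas 77.5% and 78.4% of shared peaks lay in both.

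By gene, 5168 genes had a peak in both shMETTL14 lists. A further 924 genes had peaks in U2OS and none in 143B (15.2% of the U2OS genes), and 1748 had peaks in 143B and none in U2OS (25.3% of the 143B genes). With 143B limited to the U2OS number of peaks, these counts were 1197 and 1324. Of the 924 genes, 436 were also in U2OS NC and absent from 143B NC (47.2%), 174 were in both NC lists, 62 in 143B NC alone and 252 in neither. Of the 1748 genes, 638 were in 143B NC and absent from U2OS NC (36.5%), 418 in both NC lists, 162 in U2OS NC alone and 530 in neither. Most of these genes rested on little: 78.9% of those in U2OS and 74.3% of those in 143B had 1 site, whereas 51.3% and 44.9% of the genes in both lists had 1 site. They held 42.0% of the specific peaks of U2OS and 45.1% of those of 143B, and the other 58.0% and 54.9% lay on genes with a peak of the other line at another place.

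The genes with the most sites in U2OS and none in 143B under shMETTL14 included several known from nerve and extracellular matrix. The transcriptional regulator ZNF608 had 8 sites in U2OS shMETTL14, 4 in U2OS NC and 0 in both 143B lists. In ZNF608 the extra number came partly from splitting, because the NC site at 123983126 to 123984741 on chromosome 5 (hg19) was 1 block of 1616 nt and the same stretch held 3 sites with shMETTL14. TENM2, a teneurin that links synaptic partners, had 6 sites in U2OS shMETTL14, 7 in U2OS NC and 0 in both 143B lists. Its strongest site crossed the stop codon (chromosome 5, 167689516 to 167690653, 1138 nt) with an authors' p-value of 1.26e-92 and a fold enrichment of 6.82, and the U2OS NC list had it at 167689531 to 167690713 with 7.85. MAP2, a microtubule protein of dendrites, had 5 sites in U2OS shMETTL14, 4 in U2OS NC and 0 in both 143B lists. The 5 sites lay in 1 stretch of coding sequence (chromosome 2, 210558547 to 210561465). The axonal adhesion molecule NFASC had 4 sites in each U2OS list and 0 in each 143B list. TSHZ2, a teashirt zinc finger factor, had 5 sites in U2OS shMETTL14 and 3 in U2OS NC, and CGNL1, a tight junction protein, had 4 and 5, both with 0 in the 143B lists. The group also held COL5A1, ADM2 and ZNF320, with 5, 4 and 4 sites.

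By fold enrichment the leading U2OS gene was ADM2, which encodes a secreted peptide of the calcitonin family. Its site in the 3' UTR (chromosome 22, 50923371 to 50923882, plus strand) had a fold enrichment of 40.3 with shMETTL14 and 30.8 with NC, and 143B had 1 other ADM2 site, with NC only. QPRT, an enzyme of NAD synthesis from tryptophan, followed with 1 3' UTR site at 29709071 to 29709812 on chromosome 16, at 37.0 with shMETTL14 and 24.4 with NC, and no site in 143B. FAM114A1 (29.4), PLEKHH2 (26.1), DTX1 (25.1), LRRC4C (25.1), DRD1 (24.0), NLGN4X (24.0), PALM (24.0) and H6PD (22.9) completed the 10. LRRC4C and NLGN4X are synaptic adhesion molecules, DRD1 is a dopamine receptor and DTX1 is a Notch regulator. FAM114A1, PLEKHH2, H6PD and ADM2 also had sites in 143B NC, and the other 6 had none in either 143B list.

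The genes with the most sites in 143B and none in U2OS under shMETTL14 were of 2 kinds when read against the control lists. VCAN, DSP, BNC1 and WDR76 were restricted to 143B under both hairpins. VCAN, a large matrix proteoglycan, had 8 sites in 143B shMETTL14, 10 in 143B NC and 0 in both U2OS lists. Of the 8, 7 lay in coding sequence between 82817729 and 82836843 on chromosome 5, and 1 in the 3' UTR (82876861 to 82877105, fold enrichment 4.35, p-value 3.47e-08). DSP, the desmosomal protein desmoplakin, had 6 sites in each 143B list and 0 in each U2OS list, and those with shMETTL14 lay in coding sequence between 7579618 and 7585698 on chromosome 6. BNC1, a zinc finger factor of epithelia and germ cells, had 6 sites in 143B shMETTL14 and 3 in 143B NC. The other genes had sites in U2OS NC too. PEX26, a peroxisome assembly factor, had 9 sites in 143B shMETTL14, all in its 3' UTR (chromosome 22, 18571047 to 18580065), against 4 in 143B NC and 1 in U2OS NC. PPARGC1B, a coactivator of mitochondrial genes, had 8 against 5 and 2, and NHSL1 7 against 4 and 1. BCL2, the founding anti-apoptotic protein, had 6 against 1 and 1, and the p-values of its 6 sites ran from 1.17e-05 to 0.0020. HIF1AN, the asparagine hydroxylase that restrains HIF, had 5 against 1 and 1. LRCH3 had 5 sites in 143B shMETTL14 and 4 in each NC list, so U2OS shMETTL14 was the list that lacked it. WDR76, of the first kind, had 5 against 1 in 143B NC and 0 in U2OS NC.

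**Figure D2:**
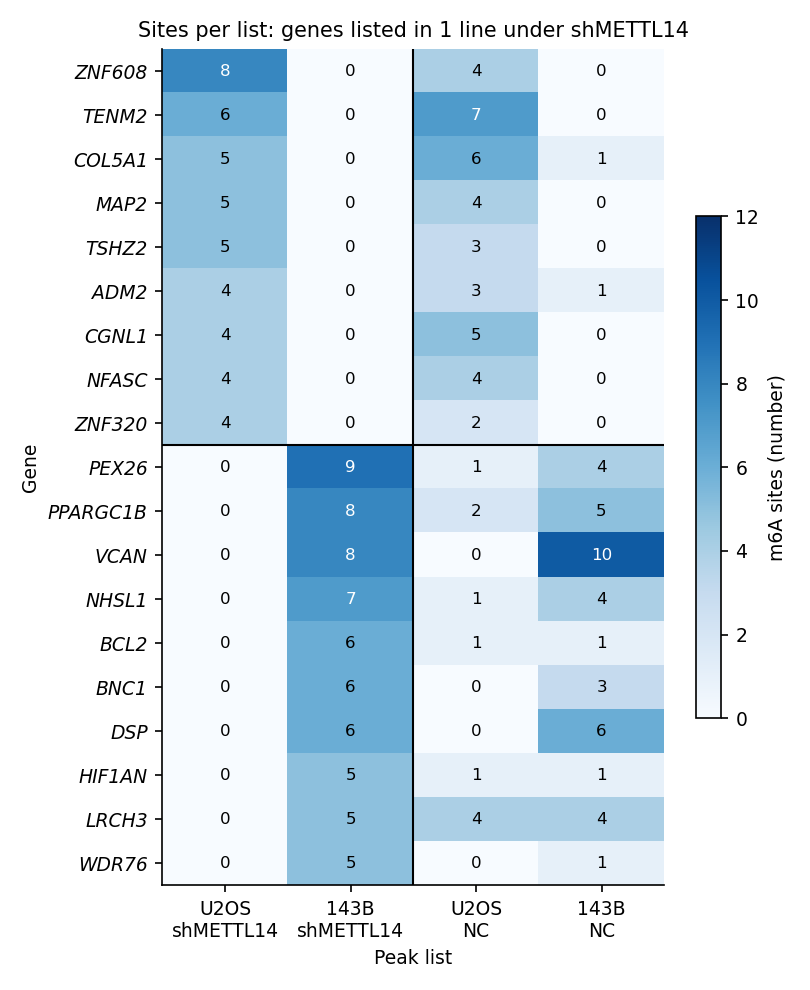
Number of m6A sites (colour and digits) in the 4 peak lists (x axis) for the genes with the most sites among those listed in 1 line under shMETTL14 (y axis; 9 of U2OS above the line, 10 of 143B below). TENM2 had 6 and 7 sites in the U2OS lists and VCAN 8 and 10 in the 143B lists with 0 in the other line, whereas LRCH3 had 4 in each NC list.

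In 143B the highest fold enrichments on such genes were on GOLGA8B (47.6), ZSWIM3 (33.2), PTPRD (29.9), ZNF714 (29.9), FAM213A (27.7), FP15737 (27.7), ZNF277 (27.7), HOXB4 (27.3), AHR (26.6) and KMT2A (26.6). GOLGA8B belongs to a family of near-identical copies and is uncertain. PTPRD is a receptor phosphatase, AHR the receptor for dioxin and related ligands, and KMT2A a histone H3 lysine methyltransferase. HOXB4, PTPRD, ZNF714, FAM213A and AHR had sites in 143B NC and none in U2OS NC. Their highest folds in 143B NC were 8.87, 9.13, 4.96, 26.1 and 4.04. ZSWIM3, FP15737 and KMT2A had none in either NC list. ZNF277 had 1 in each NC list, with a fold enrichment of 4.84 in 143B NC and 3.11 in U2OS NC.

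HOX genes encode the homeobox factors that set position along the body axis, and cells keep the HOX code of their site of origin. Sites of the HOXB cluster, which was split from the HOX list after values were seen, were listed mainly in 143B. HOXB genes had 18 sites on 8 genes in 143B shMETTL14 and 3 sites on 3 genes in U2OS shMETTL14. Of the 18 sites, 15 had no U2OS partner (83.3%, where 40.1% of all 143B sites had none), and 0 of the 3 U2OS sites lacked a 143B partner. With the control hairpin the cluster had 16 sites on 7 genes in 143B and 7 sites on 5 genes in U2OS. HOXB2 had 2 sites and HOXB4 3 in 143B shMETTL14, the same numbers in 143B NC, and none in either U2OS list. The coding site of HOXB4 (chromosome 17, 46654336 to 46655565, minus strand, 388 nt) had a fold enrichment of 27.3 with shMETTL14 and 8.87 with NC. The 3' UTR site of HOXB2 (46620017 to 46620404) had 12.2 and an authors' p-value of 5.01e-31. HOXB6 had 4 sites in 143B shMETTL14, 3 in 143B NC, 0 in U2OS shMETTL14 and 2 in U2OS NC, and HOXB8 had 3, 2, 0 and 1. HOXB3, HOXB7 and HOXB9 each had 1 site in U2OS shMETTL14 that was shared with 143B.

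The other HOX clusters differed less. HOXA had 6 sites on 5 genes in U2OS shMETTL14 and 7 on 6 genes in 143B shMETTL14, HOXC had 7 on 6 genes and 11 on 6 genes, and HOXD had 3 on 3 genes and 4 on 4 genes. HOXA9 and HOXA10 had 1 site in each 143B list and 0 in each U2OS list. HOXA13 had 1 site in U2OS shMETTL14 (stop codon, fold enrichment 7.90) and none in 143B shMETTL14, but 1 in each NC list. Over all HOX genes, 24 of 40 sites in 143B (interval 43.3 to 75.1%) and 3 of 19 in U2OS (3.38 to 39.6%) were line-specific. Neighbouring sites of 1 cluster are not independent. By the authors' p-values 72.2% of the HOX peaks of 143B and 24.4% of those of U2OS lay in the lower 50% of their list, and the part of peak strength in the difference was not tested.

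On the RAS and MAP kinase list, 9 of the 30 genes in 143B shMETTL14 had no site in U2OS shMETTL14 (30.0%, where 25.3% of all 143B genes had none). In the other direction it was 2 of 23 genes (8.70%, where all U2OS genes gave 15.2%), and 21 genes were in both. Its specific sites were 25 of 53 in 143B and 10 of 39 in U2OS, and the intervals (33.3 to 61.4% and 13.0 to 42.1%) held the 40.1% and 25% over all sites. The Sprouty and DUSP genes described here were picked from the list after their values were seen, which gives no evidence that they differ from its other members. Sprouty proteins and dual-specificity phosphatases dampen the cascade that leads from RAS to the MAP kinases, and their genes are induced by it. SPRY4 had 4 sites in 143B shMETTL14, 6 in 143B NC and 0 in both U2OS lists. Its strongest site lay in coding sequence (chromosome 5, 141694233 to 141694660, minus strand) with a p-value of 3.16e-28 and a fold enrichment of 3.71, and a 3' UTR site (141692894 to 141693672) had 5.11. DUSP7 had 3 sites in 143B shMETTL14 and 1 in 143B NC, DUSP5 2 and 1, and DUSP6 1 and 1, with 0 in both U2OS lists. SPRY1 and DUSP4 had 2 sites each in 143B shMETTL14 and none in the other 3 lists. The transcription factors ETV1 and ETV4, which act below this cascade, had 1 site in each 143B list and 0 in each U2OS list. On the other side, the kinase MAP3K2 had 3 sites in each U2OS list and 0 in each 143B list, and the scaffold KSR1 had 2 in each U2OS list and 1 in 143B NC.

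In the Wnt list, 14 of 28 genes in 143B shMETTL14 had no site in U2OS shMETTL14 (50%), and 4 of 18 genes had the reverse (22.2%), where all genes gave 25.3% and 15.2%. The ligand WNT7B had 3 3' UTR sites in each 143B list and 0 in each U2OS list, the strongest at 46317139 to 46317767 on chromosome 22 (p-value 1e-22, fold enrichment 7.43). The receptor FZD8 had 3 sites in 143B shMETTL14, 2 in 143B NC and 0 in both U2OS lists. U2OS had WNT6 with 1 site in each of its lists and WNT5A with 1 site in shMETTL14 alone. Among 46 listed developmental regulators, 14 were in 143B alone (34.1% of those in 143B, against 25.3% of all genes), 5 in U2OS alone (15.6%, against 15.2%) and 27 in both. MEIS2, a HOX cofactor, had 4 sites in 143B shMETTL14, 3 in 143B NC, 0 in U2OS shMETTL14 and 1 in U2OS NC, and FOXP1 had 3, 3, 0 and 1. GATA4 also had 3, 3, 0 and 1, PAX9 2, 2, 0 and 0, and TWIST2 2, 2, 0 and 0. PRRX1, a factor of limb mesenchyme, had 3 sites in 143B shMETTL14 and 1 in U2OS shMETTL14, and none of them overlapped. Of the sites on developmental regulators, 46 of 91 were specific in 143B and 13 of 61 in U2OS, and of those on Wnt genes 27 of 53 and 7 of 37. All 4 intervals reached the share over all sites.

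Matrix and adhesion genes had more genes in U2OS alone than in 143B alone. Of 46 genes with a site, 10 had sites in U2OS shMETTL14 alone (23.3% of those in U2OS, against 15.2% of all genes), 3 in 143B shMETTL14 alone (8.33%, against 25.3%) and 33 in both. Among the genes in U2OS alone were the fibrillar collagens COL3A1, COL5A1 and the anchoring collagen COL7A1, the integrin ITGB8, fibronectin (FN1), perlecan (HSPG2), syndecan-2 (SDC2), the gelatinase MMP2 and the collagen cross-linking enzyme LOX. COL5A1 had 5 sites in U2OS shMETTL14, 6 in U2OS NC, 0 in 143B shMETTL14 and 1 in 143B NC, and its strongest site lay in coding sequence (chromosome 9, 137671961 to 137681053 over its exons, p-value 1.66e-10, fold enrichment 3.27). ITGB8 had 2 sites in each U2OS list, FN1 had 2 with shMETTL14 and 1 with NC, and both had 0 in the 143B lists. Of these 10 genes, 8 were restricted to U2OS with the control hairpin as well, the exceptions being COL5A1 and MMP2, which had 1 site in 143B NC. In 143B the 3 genes were VCAN, ITGA1 with 2 sites in 143B shMETTL14 and no other list, and N-cadherin (CDH2), which had 1 site in each NC list. Specific sites were 29 of 80 in U2OS (interval 25.8 to 47.8%) and 27 of 81 in 143B (23.2 to 44.7%), where all sites gave 25% and 40.1%. Of the peaks on these genes, 46.4% in U2OS and 52.4% in 143B lay in the lower 50% of their list by p-value. Few markers of other cell types had a site in either shMETTL14 list: 5 of 25 epithelial and neural markers and 4 of 19 for cartilage, muscle and fibroblasts. Of these, MAP2, NES and SNAP25 for nerve, and THY1 and LUM for fibroblasts had sites in U2OS alone under both hairpins. They had 5, 1, 1, 1 and 1 sites under shMETTL14. The epithelial keratin KRT18 had 2 sites in each 143B list and none in U2OS, at fold enrichments of 1.30 and 1.47. Its partner keratin KRT8 had 2 sites in each shMETTL14 list, all shared, and was also in both NC lists. Of 17 blood and immune markers, CD68 alone had sites, which were in all 4 lists, and its 3' UTR site in 143B shMETTL14 (chromosome 17, 7484821 to 7485429) had the highest fold enrichment of any specific peak of that list, 68.1.

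**Figure D3:**
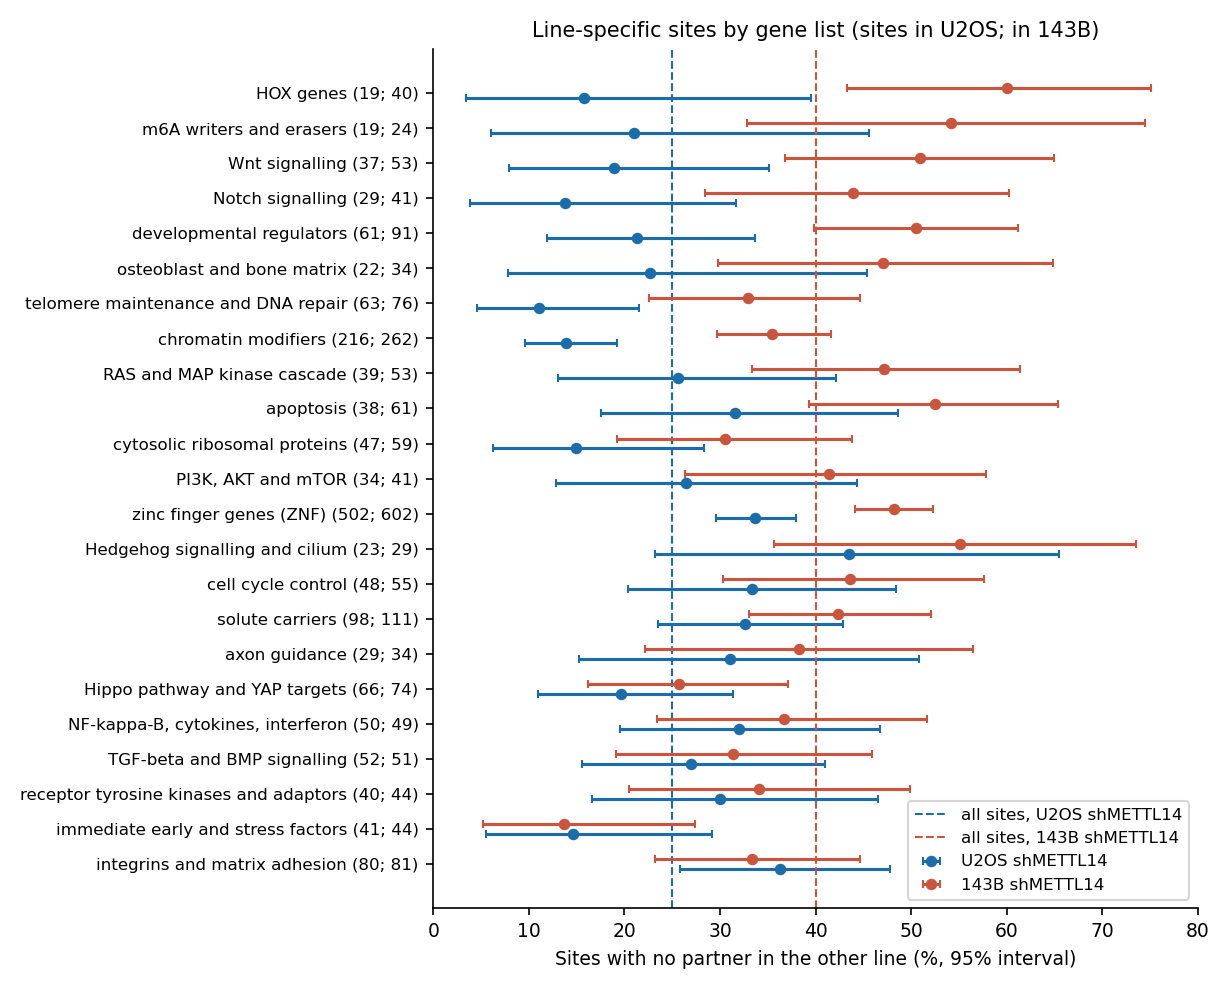
Percent of sites with no partner in the other line (x axis) for each gene list with at least 19 sites in both shMETTL14 lists (y axis, number of sites in U2OS and 143B in brackets), with exact 95% intervals as bars and the share over all sites as broken lines. HOX genes had the widest gap between the lines, at 60.0% in 143B and 15.8% in U2OS. Matrix adhesion genes were at 36.25% in U2OS and 33.3% in 143B, with overlapping intervals.

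Apoptosis genes were close to the overall shares by gene: 5 of 26 genes in 143B had no site in U2OS (19.2%, against 25.3% of all genes) and 3 of 24 had the reverse (12.5%, against 15.2%). They had 61 sites in 143B, 32 of them specific (interval 39.3 to 65.4%), and 38 sites in U2OS, 12 of them specific (17.5 to 48.7%), and both intervals reached the share over all sites. BIRC2, an inhibitor of apoptosis that binds TRAF adaptors, had 4 sites in 143B shMETTL14, 3 in 143B NC, 2 in U2OS NC and 0 in U2OS shMETTL14. Its site across the start codon (chromosome 11, 102220504 to 102220907) had a p-value of 3.98e-13. The scaffold APAF1 had 2 sites in 143B shMETTL14 and none in the other lists. In U2OS the BH3-only gene BMF had 3 sites in each list and 0 in each 143B list. BBC3, the BH3-only protein PUMA, had 4 sites in U2OS shMETTL14 and 1 in 143B shMETTL14, and the 3' UTR site at 47724790 on chromosome 19 was the shared one. In the list of cell cycle control genes, CDKN2A had no site in any list. BTG2, an antiproliferative factor, had 3 sites in U2OS shMETTL14, 2 in U2OS NC, 0 in 143B shMETTL14 and 1 in 143B NC.

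In several other groups the U2OS share of specific sites was below the 25% over all U2OS sites. All 11 sites on mitochondrially encoded genes were shared in both lines. Immediate early and stress genes had 6 specific of 41 sites in U2OS and 6 of 44 in 143B (13.6%, interval 5.17 to 27.4, where all 143B sites gave 40.1%). Chromatin modifiers had 30 of 216 in U2OS (13.9%, interval 9.57 to 19.2) and 93 of 262 in 143B (35.5%, interval 29.7 to 41.6). Telomere and DNA repair genes had 7 of 63 in U2OS (11.1%, interval 4.59 to 21.6) and 25 of 76 in 143B (interval 22.5 to 44.6%). In that list 10 of 42 genes in 143B had no site in U2OS (23.8%, near the 25.3% of all 143B genes), and 0 of 32 had the reverse. The 10 included the recombination factors PALB2 and RAD52 and the kinase ATM. PALB2, MRE11A, ATM and POLQ were also listed in U2OS NC, and RAD52 was not. ATRX was among the 10 too, with a coding site in each 143B list that was placed on an alternate sequence outside the main chromosomes. Cytosolic ribosomal protein genes had 7 specific of 47 sites in U2OS (interval 6.20 to 28.3%) and 18 of 59 in 143B (19.2 to 43.9%). In U2OS the intervals of the immediate early (5.57 to 29.2%), mitochondrial (0 to 28.5%) and ribosomal groups held the 25% over all sites. The 143B intervals of the chromatin, repair and ribosomal groups held the overall 40.1%. These groups held strong peaks: 61% and 55.9% of the chromatin modifier peaks, 65.7% and 64.3% of the immediate early peaks and 83.8% and 88.2% of the ribosomal protein peaks lay in the lower 50% of their list by p-value, in U2OS and 143B. For telomere and DNA repair genes these shares were 35.7% and 50.2%.

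On zinc finger genes named ZNF, 169 of 502 sites in U2OS (33.7%, interval 29.5 to 38.0) and 290 of 602 in 143B (48.2%, interval 44.1 to 52.2) were specific, against 25% and 40.1% of all sites. Many of these transcriptional repressors lie in clusters on chromosome 19. There, 84 of 176 sites were specific in U2OS (47.7%) and 111 of 202 in 143B (55.0%), whereas the ZNF genes elsewhere had 26.1% and 44.8%. The order of the lines on chromosome 19 turned with the hairpin: ZNF genes there had 238 sites in U2OS NC and 148 in 143B NC, against 176 and 202 with shMETTL14. Members of these clusters can share reads, and 27.0% and 28.0% of ZNF peaks lay in the lower 50% of their list by p-value. By chromosome over all genes, the specific share of U2OS sites ran from 16.7% on chromosome 20 to 33.8% on X, and that of 143B sites from 30.5% on chromosome 22 to 45.6% on chromosome 19. Chromosome 20 had 312 sites in U2OS and 420 in 143B with shMETTL14, and 315 and 414 with NC.

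Genes of the m6A pathway had few sites. On writers and erasers, 4 of 19 were specific in U2OS (interval 6.05 to 45.6%) and 13 of 24 in 143B (54.2%, interval 32.8 to 74.4%). On readers, these were 4 of 17 (6.81 to 49.9%) and 7 of 19 (16.3 to 61.6%). These wide intervals held the share over all sites of their line, 25% in U2OS and 40.1% in 143B. METTL3 had 1 coding site in 143B shMETTL14 (chromosome 14, 21970031 to 21971479) and none in the other lists. METTL14 shared 1 site between the lines, at the stop codon in U2OS (chromosome 4, 119631399 to 119631459) and in the last coding stretch in 143B (119631325 to 119631415). Its other site lay in the 3' UTR in U2OS (119632222 to 119632402, fold enrichment 18.5) and in upstream coding exons in 143B (119609159 to 119613153, fold enrichment 5.98).

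Line-specific peaks were weak and narrow compared with shared ones. When each list was ordered by the authors' p-value and divided into 5 equal parts, the specific share went step by step from 2.45% to 45.5% in U2OS, and in 143B it went from 2.81% to 67.3%. The strongest parts of both lists thus had nearly the same share, and the lines parted below it: in the next part the shares were 7.52% and 14.1%. By spliced width the specific share ran from 2.95% among the widest to 45.1% among the narrowest in U2OS, and the 143B range was 6.86% to 67.9%. Because 1 bp of overlap was enough, a wider peak could meet a partner more easily by the rule itself. How much of the width order this makes up was not tested. The median width was 121 nt for specific and 240 nt for shared peaks in U2OS, and 150 and 299 nt in 143B. Fold enrichment gave no such order. In U2OS the shares from the highest to the lowest part were 29.1%, 17.0%, 17.3%, 20.4% and 26.4%, so peaks of the highest fold were more often specific than those of middle fold. The median fold enrichment of U2OS peaks was 3.54 for specific and for shared peaks, and in 143B it was 3.27 and 3.74.

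**Figure D4:**
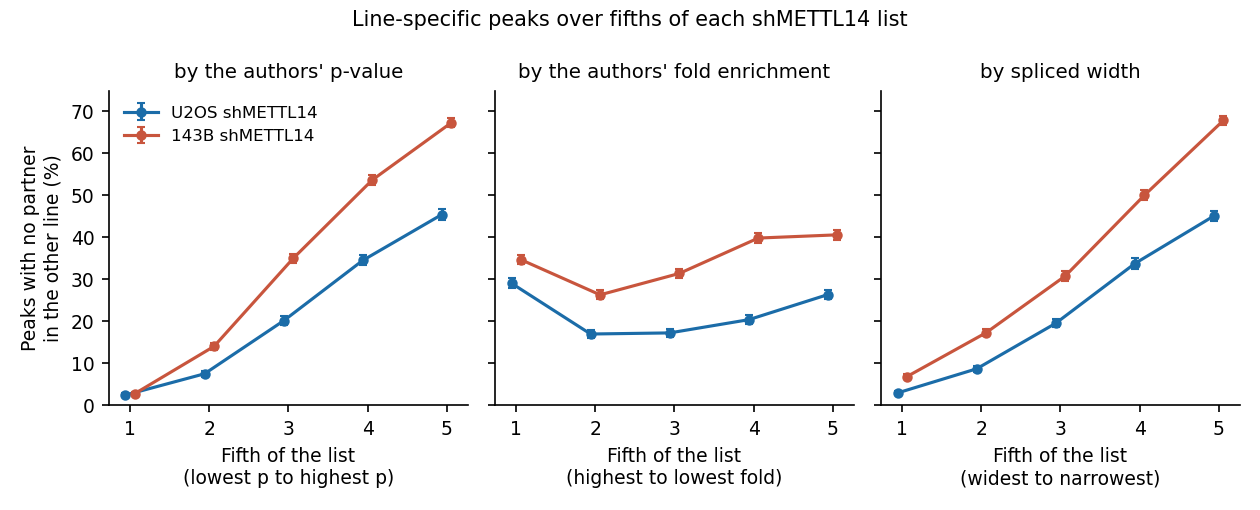
Percent of peaks with no partner in the other line (y axis) over 5 equal parts of each shMETTL14 list (x axis), ordered by the authors' p-value, by the authors' fold enrichment and by spliced width, with exact 95% intervals. The share went from 2.45% and 2.81% to 45.5% and 67.3% over the p-value parts, while fold enrichment gave no steady order.

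Among peaks assigned to 1 of 5 transcript regions, line-specific peaks were most frequent in the UTRs and least frequent at stop codons. The remaining peaks, 90 in U2OS and 128 in 143B, had another label and 4 (4.44%) and 5 (3.91%) specific ones. In U2OS 36.8% of 5' UTR peaks, 17.3% of start codon peaks, 22.5% of coding peaks, 11.8% of stop codon peaks and 27.5% of 3' UTR peaks were specific. In 143B the shares were 53.3%, 23.3%, 33.4%, 20.1% and 47.1%, in the same order of regions. The lines differed most in the 3' UTR and 5' UTR: 4153 of 8816 3' UTR peaks were specific in 143B and 1848 of 6709 in U2OS. The 3' UTR held 34.1% of the 143B-specific and 20.3% of the 143B shared peaks, against 28.0% and 20.8% in U2OS. Peak strength moved with the region, since 74.9% of stop codon peaks and 34.1% of 3' UTR peaks of U2OS lay in the lower 50% of p-values (74.9% and 35.0% in 143B). Within that lower 50% the shares were 5.10% at stop codons and 9.65% in 3' UTRs in U2OS, and 10.3% and 20.0% in 143B. Start codon peaks had 7.03% and 9.92% there, and 5' UTR peaks 8.47% and 20.1%, in U2OS and 143B. In the other 50% of U2OS, 3' UTR peaks had 36.8%, coding peaks 36.9%, start codon peaks 37.7% and stop codon peaks 31.7%. In 143B these were 61.7%, 54.0%, 52.0% and 49.3%. The part of peak strength in the order of regions was not tested.

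**Figure D5:**
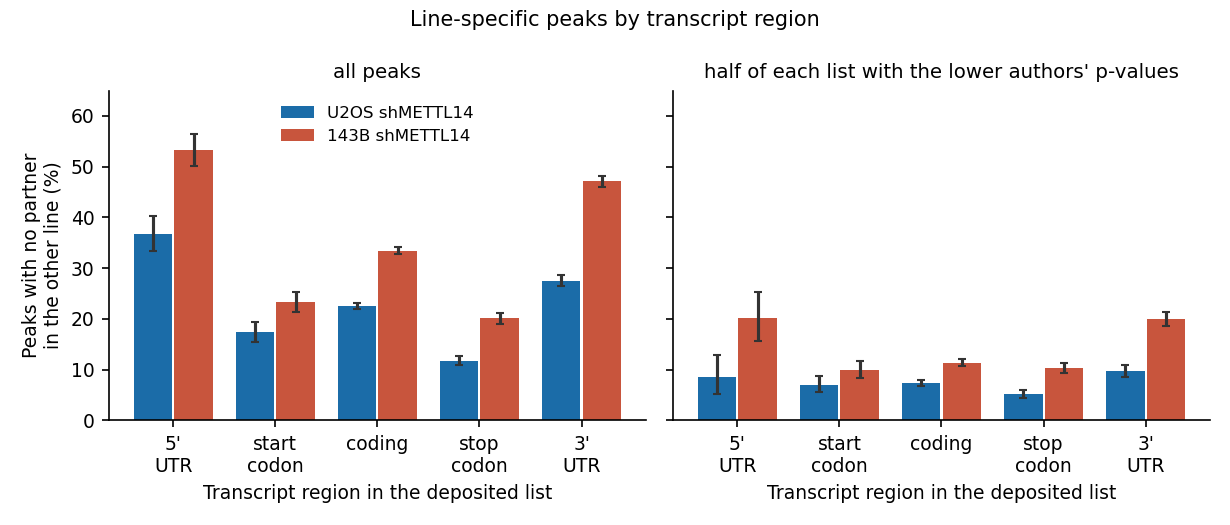
Percent of peaks with no partner in the other line (y axis, bars with exact 95% intervals) by the transcript region in the deposited lists (x axis), for all peaks and for the 50% of each list with the lower authors' p-values. Of the 5 regions drawn, stop codon peaks were lowest in the plot of all peaks, at 11.8% in U2OS and 20.1% in 143B, and 3' UTR peaks of 143B reached 47.1%.

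On genes with peaks in both lines, specific peaks were often close to a peak of the other line. For 3825 specific U2OS peaks and 6666 specific 143B peaks with a same-strand peak of the other line on their gene, the median distance to it was 1185 bp and 1167 bp, and 47.9% and 47.8% lay within 1000 bp. These are distances between whole genomic spans, introns included. By them, 596 of all specific peaks in U2OS (9.02%) and 813 in 143B (6.68%) lay within 100 bp of such a peak. Of these, 77 and 116 had a span that overlapped it without a shared exonic base. Raising the overlap required to 50% of the shorter peak gave 24.4% specific in U2OS and 36.8% in 143B. There were 224 genes with peaks in both lists and no overlapping peak. GON4L, a transcriptional cofactor, had 5 sites in U2OS shMETTL14 and 1 in 143B shMETTL14, and the 143B site (chromosome 1, 155735052 to 155735141) began just after a U2OS site that ended at 155735028. The ubiquitin ligase MYCBP2 had 4 and 2 sites, ARHGAP32 1 and 4, EVI5 3 and 2 and the presynaptic scaffold PCLO 1 and 4, none overlapping.

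Of the 5168 genes in both lists, 2802 had the same number of sites in each, 1450 had more in 143B and 916 more in U2OS. The excess was 3 or more sites for 123 genes in 143B and 51 in U2OS. The cytoskeletal linker DST had 23 sites in U2OS and 14 in 143B with shMETTL14, and 22 and 14 with NC. MAP1A, another neuronal microtubule protein, had 7 and 1 with shMETTL14 and 8 and 1 with NC. FMN1 had 7 and 2 (NC 6 and 0), RPAP2 11 and 6 (NC 10 and 3), and MKI67, the proliferation marker, 7 and 2 (NC 7 and 3). MKI67 had 0 specific sites in either line, and 6 of its U2OS sites lay along a single 143B site of 8572 nt (chromosome 10, 129896122 to 129907572). On the 143B side AHNAK2 had 15 sites against 4 in U2OS (NC 19 and 4), the AMPA receptor regulator CACNG8 10 against 3 (NC 9 and 1), ZNF646 8 against 1 (NC 6 and 0), the ciliary protein CEP290 10 against 3 (NC 8 and 7) and RAI1 8 against 1 (NC 4 and 2). Except for CEP290, whose NC lists had 8 and 7, the side with more sites differed from the other by 2 or more with NC for these 10 genes.

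Shared sites were paired across the lines when each was the other's best overlap, which itself favours close positions. There were 7483 such pairs, and 70.3% of them covered at least 50% of each other. For the 4432 pairs made of 1 block each, the median distance between centres was 38 nt. Both sites of a pair were assigned to the same transcript region in 86.5% of pairs. Fold enrichments of the pairs had a Spearman rho of 0.71 across sites, and widths 0.62. Sites are not independent replicates, each line's values come from 1 library, and both values depend on how much input RNA a transcript has. The median width in pairs was 270 nt in U2OS and 332 nt in 143B, and 586 sites of 143B spanned 2 or more U2OS sites whereas 248 U2OS sites spanned 2 or more of 143B.

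The shared sites of highest fold enrichment in both lists were mainly in 3' UTRs. By mean rank RPL7L1, a ribosomal protein L7-like factor, was first, with 47.9 in U2OS and 64.3 in 143B (chromosome 6, 42854227 to 42855540 in U2OS and to 42855605 in 143B). EIF2AK2, the double-stranded RNA-activated kinase PKR, had 45.8 and 52.1, and IFNAR1, a chain of the type I interferon receptor, had 36.0 and 66.5 at its stop codon. KCTD20 had 76.3 in U2OS, the highest value of that list, and 33.2 in 143B, with 3' UTR sites at 36457676 to 36458591 and 36457844 to 36458681 on chromosome 6. The other 6 of the first 10 were ZKSCAN1, the calcium channel subunit ORAI2, the lipid droplet protein HILPDA, MAP3K13, GATAD1 and CHP1, with 29.4 to 43.6 in U2OS and 37.7 to 52.1 in 143B. With NC, the highest fold on these 10 genes ran from 4.98 (EIF2AK2) to 41.1 (ZKSCAN1) in U2OS. In 143B NC it ran from 4.29 (IFNAR1) to 19.6 (MAP3K13), so these values were not equally high in all 4 lists. Counting pairs whose site was in the highest 10% of its list by fold enrichment, 351 pairs were so in both lines (51.6% of the 680 in U2OS and 55.4% of the 634 in 143B).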

How the data were processed

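MeRIP-seq compared RNA enriched with an antibody against m6A with input RNA. The 8 libraries formed 4 pairs, and each pair had 1 deposited peak list. The submitters' processing notes name the build hg19 (GRCh37) and the tools HISAT2, Trimmomatic and FastQC 0.11.5. Not given in the sources used here are the caller and its threshold, the annotation and the depth. Per the file headers, the authors deposited a p-value and a fold enrichment (a linear ratio) for each peak, with its blocks and transcript region. These were used only to describe or rank peaks within a list, except in alternatives that set 1 p-value for both lists.

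Overlaps required 1 bp of spliced blocks on the same strand. Overlapping peaks of a list were joined to sites, and a site took the gene and region of 1 of its peaks. Intervals are exact (Clopper-Pearson, 95%). The overlap code was tested on simulated data. Lists of genes (24 of fixed symbols, 6 by name pattern) and the members were chosen with earlier results of these data known. Named genes were taken by rule: the 10 per line with the highest fold enrichment and the 10 with most sites among genes absent from the other list, 5 per line also restricted with NC, 5 without overlapping peaks, 10 top shared sites, 5 per line with the largest excess of sites, and up to 4 specific members and 1 shared member per line and list. Genes outside it, such as most single-site members of a list, were chosen after their values were seen. Peak sequences were not used here. Some genes that the rule selects are not reported here. Python 3.11.15, numpy 2.4.6, pandas 2.3.3, scipy 1.17.1 and matplotlib 3.10.9 were used.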

Additional observations from a re-analysis of the deposited data

Results flagged for a closer look

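Of the 272 genes taken by the naming rule, 4 had sites in 1 line with shMETTL14 and in the other line with NC only. Opposite changes short of such a full switch were not counted. PEX26 had such an opposite change and was not among the 4. From NC to shMETTL14 it went from 1 to 0 sites in U2OS and from 4 to 9 in 143B. E2F2, a transcription factor of the cell cycle, had 2 sites in 143B shMETTL14 and 1 in U2OS NC, and the semaphorin receptor PLXNA1 had 2 in 143B shMETTL14 and 2 in U2OS NC. GOLGA8B, of a near-identical family, had 1 site in each of these lists. SLC25A30, a mitochondrial carrier, had 2 sites in U2OS shMETTL14 and 1 in 143B NC. All 4 had none in the remaining lists. Either shMETTL14 list held 7840 genes. Among them 62 listed in U2OS alone and 162 in 143B alone were in the other line's NC list and not in their own. These were 6.71% of the 924 and 9.27% of the 1748 genes listed in 1 line alone, whereas the 272 include genes listed in both. The difference was not tested, and each rests on 1 list per group.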

How the results depend on the processing

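The share of peaks with no partner in the other line, 22% in U2OS and 34.6% in 143B, stayed higher in 143B under each alternative tried, but its size depended on the rule. Overlap of 50% of the shorter peak gave 24.4% in U2OS and 36.8% in 143B, overlap of 50% of each peak 43.1% and 51.7%, and partners within 100 bp 20.3% and 32.5%. Counted as sites the shares were 25% and 40.1%, and with 1 transcript per gene 26.0% and 40.5%. Cutting the 143B list to the U2OS length gave 26.0% in U2OS and 28.6% in 143B, with 1197 genes in U2OS alone and 1324 in 143B alone, in place of 924 and 1748. With only peaks at or below the weaker median p-value in both lists, U2OS had 18.1%, and 570 genes were in U2OS alone and 1509 in 143B alone. For the 50% of peaks of highest fold enrichment, 143B had 30.6%. Peaks at or below that p-value against the whole other list, an alternative chosen after seeing the data, gave 7.14% and 14.7%. Where a value moved with the overlap rule, the unit or the peaks kept, that change of rule is the alternative's own construction, and any further cause was not tested. Whole spans, strand ignored and chromosomes 1 to 22 and X left each share within its interval. No paired analysis was possible because each group had 1 list and the result comes from no test, and no replicate could be left out. Depth is unknown, so a missing peak cannot be told apart from a site that was too thinly covered to call.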
